A study of Mus musculus with 16 samples.

Results

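The genes described here are 36 genes of calcium handling and excitation-contraction coupling in the heart muscle cell, chosen by symbol and grouped by role. A member is measured where a probe set of the array is annotated to its symbol alone, and where several probe sets are, the brightest of them on average across the 16 arrays stands for the gene. Of the 36 genes, 33 were measured, among 17097 genes in all, and Itpr1, Cacnb2 and Atp2b4 are not analysed here. RNA of ventricular cells from collagenase-perfused hearts of adult mice was hybridised to GeneAtlas MG-430 PM arrays of Affymetrix, and each mouse had 1 array. The groups are female GPER KO (animals 417, 419, 426 and 427), female intact (418, 421, 422 and 425), male GPER KO (431, 432, 444 and 451) and male intact (430, 433, 452 and 453) mice. GPER, encoded by Gper1, is the G protein-coupled estrogen receptor, and the study describes its deletion as limited to cardiomyocytes. The promoter that drives the recombinase, the deleted part of the gene and the strain are not given in the sources used here. The labels call the intact mice wild type and give an age of 15 weeks for all animals, while the study's methods give an older age. The question asked of each gene was whether GPER KO and intact cells differ in its transcript in either sex.

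In cardiomyocytes an action potential opens the L-type calcium channel of the surface membrane, and the entering calcium opens the ryanodine receptor of the sarcoplasmic reticulum (SR), which releases far more calcium and triggers contraction. Both channels face each other across a narrow cleft, the dyad, which junctophilins hold together. Relaxation follows when the SERCA pump returns calcium to the SR under the brake of phospholamban and the sodium-calcium exchanger removes the rest. Kinases and phosphatases tune these steps, and a smaller calcium flow into mitochondria links contraction to energy supply.

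All values are log2 values from RMA, which corrects background, normalizes arrays against each other and summarises the probes of a probe set. Array medians were 3.47 to 3.51, and arrays correlated at 0.982 to 0.997 over all probe sets. Gper1 was listed at 2.74, 2.97, 2.79 and 2.66 on the female GPER KO arrays, against 2.76, 3.11, 2.80 and 2.82 on the female intact arrays. It was 2.86, 2.82, 2.74 and 2.72 on the male GPER KO arrays, against 2.64, 2.77, 2.75 and 2.93 on the male intact arrays. These values overlap in each sex (exact two-sided permutation test, p = 0.457 in females and p = 0.971 in males) and lie below the array medians, so they do not check the genotype labels. Cardiomyocyte markers were high in every group, with a list mean of 12.13 to 12.21 on female GPER KO arrays, against 12.05 to 12.12 on female intact arrays, and 12.15 to 12.24 on male GPER KO arrays, against 12.09 to 12.14 on male intact arrays. These ranges do not overlap, yet only 6 of the list's 14 measured genes were above the intact mean in females and 7 in males. The median difference of these genes was -0.00 in females and 0.01 in males. The 1 gene of the list that was called was Nppb, a natriuretic peptide gene, in males (adjusted p = 0.0323) and over both sexes (difference 0.91, adjusted p = 0.00304), and in females its difference was 0.82 (adjusted p = 0.135). The preparation was not sorted, and in bulk samples fewer cells of a type and less RNA per cell cannot be told apart. Macrophage markers were above the intact mean for 14 of 15 genes in female GPER KO cells, with 0 called, and for 15 of 15 in male GPER KO cells, with 6 called. The mean of that list was 4.74 to 5.04 on female GPER KO arrays, against 4.45 to 4.68 on female intact arrays, and 4.98 to 5.69 on male GPER KO arrays, against 4.56 to 5.16 on male intact arrays. The dimmest gene of the list, Ptprc, averaged 3.13, below the array medians, and the brightest, Lyz2, averaged 7.82. Endothelial markers were below the intact mean for 14 of 15 genes in females and for 15 of 15 in males, with 0 called in either sex.

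Few members were called as different between GPER KO and intact cells. In limma's test with Benjamini-Hochberg adjustment over all genes and a threshold of 0.05, 0 of 33 members were called in females, where 0.281% of all genes were. In males 1 of 33 was called, against 0.620% of all genes, and this was Jph1. Over both sexes, with 8 GPER KO and 8 intact animals, 2 of 33 were called, against 1.36% of all genes, and these were Jph1, lower, and Cacna1h, higher. At an unadjusted p under 0.05 the count was 6 of 33 in females, or 18.2%, against 12.6% of all genes. It was 8 of 33 in males, or 24.2%, against 10.1%, and 8 of 33 over both sexes, or 24.2%, against 11.7%. The GPER KO and intact values did not overlap for 4 members in females (12.1%, against 5.69% of all genes). In males they did not overlap for 5 members (15.2%, against 6.21%). The members as a set were not tested. Asph and Hrc were below and Cacna1h and Atp1b1 above in females, while Ryr2, Trdn, Atp2a2, Jph1 and Ppp1r1a were below in males. The median difference over the members was -0.00 in females and -0.09 in males, against -0.02 and 0.01 over all genes in the same sexes. The comparison over both sexes uses every array of the comparisons in each sex and is no independent support for them.

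The 95% confidence interval of a member's difference reached a median of 0.19 to either side in each sex. In females 27 members, and in males 23 members, had a difference under 0.20 in size. The largest differences in size were 0.49 in females, for Cacna2d1, and 0.53 in males, for Rcan1, and neither was called.

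**Figure D1:**
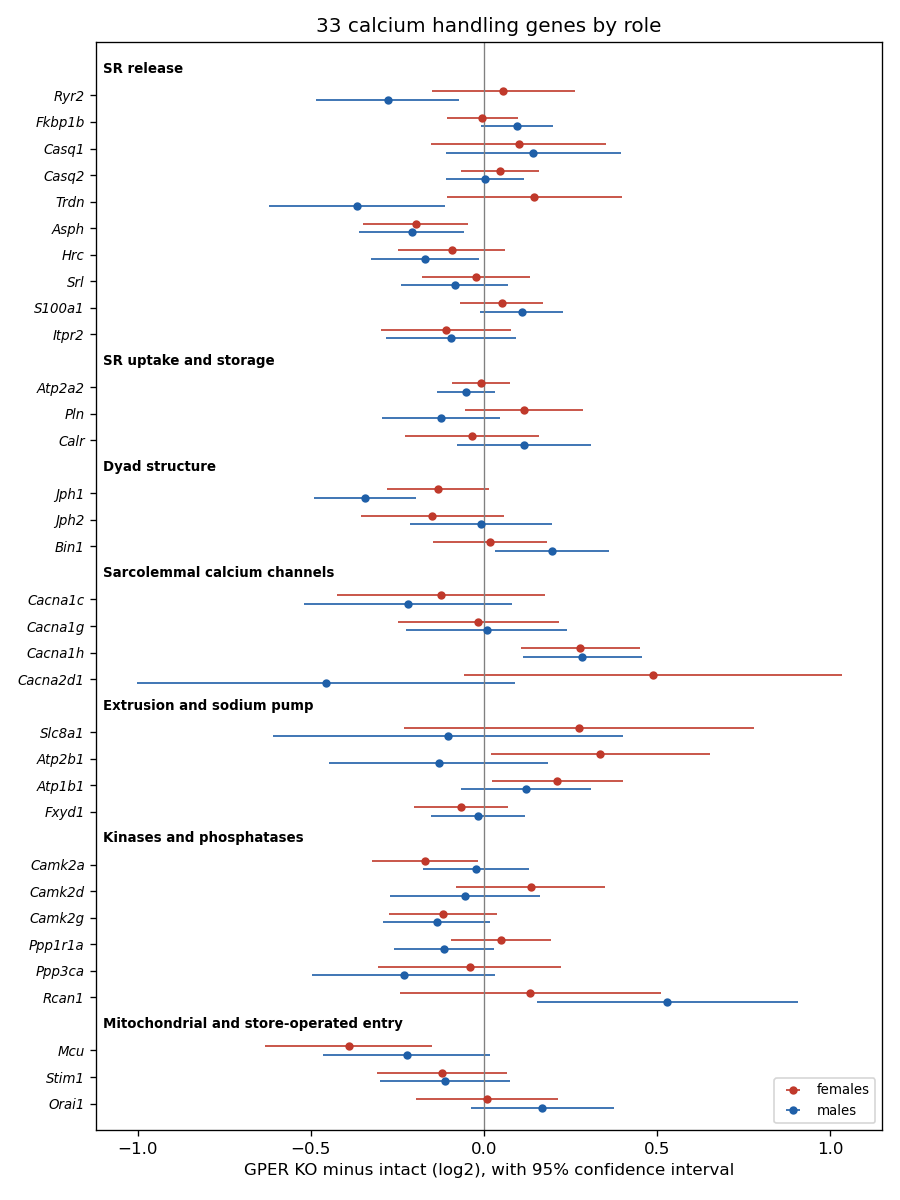
Difference between GPER KO and intact cells on the log2 scale for the 33 measured members, grouped by role, in females (red) and males (blue), with 95% confidence intervals from limma (n = 4 arrays per group). Most intervals span 0, Jph1 in males lies at -0.34, Cacna1h lies at 0.28 in each sex, and Cacna2d1 lies at 0.49 in females and -0.46 in males.

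Among the dyad genes, Jph1 was lower in GPER KO cells. Jph1 encodes junctophilin 1, a protein that ties the SR to the surface membrane and is best known from skeletal muscle, whereas Jph2 encodes the main cardiac junctophilin. On the male arrays Jph1 was 5.42, 5.50, 5.24 and 5.31 in GPER KO cells, against 5.66, 5.79, 5.71 and 5.69 in intact cells. Every male GPER KO value lay below every male intact value. The difference was -0.34 (standard error 0.07, 95% confidence interval -0.49 to -0.20, adjusted p = 0.032 from limma). On the female arrays Jph1 was 5.30, 5.17, 5.32 and 5.41 in GPER KO cells, against 5.56, 5.43, 5.31 and 5.43 in intact cells. These overlap, with a difference of -0.13 (standard error 0.07, adjusted p = 0.448), and over both sexes the difference was -0.24 (standard error 0.05, adjusted p = 0.0221). The male intact arrays, at 5.66 to 5.79, were also above all 12 other arrays, which ranged over 5.17 to 5.56. Jph1 correlated across the 16 arrays at r = 0.422 with the endothelial list, -0.482 with cardiomyocyte and -0.504 with skeletal muscle markers. For the atrial, macrophage, fibroblast and smooth muscle lists r was -0.307, -0.271, -0.136 and 0.0934. The part of cell types in the Jph1 difference was not tested.

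The Jph1 call has narrow support. A dimmer probe set of Jph1, with a mean of 5.08, differed by -0.02 in males (unadjusted p = 0.699) and by -0.11 in females (unadjusted p = 0.0542). The male call was lost when any of 7 of the 8 male arrays was left out, namely GPER KO 431, 444 or 451 or intact 430, 433, 452 or 453, with an adjusted p of 0.0588 to 0.11 and a difference of -0.30 to -0.36. The call over both sexes was lost without male intact 433 (adjusted p = 0.0508). Without male intact 430 and 433 together, an omission chosen after seeing the data, neither call was made (adjusted p = 0.293 in males and 0.0905 over both sexes). Neither of the other dyad genes was called. Jph2 differed by -0.15 in females and -0.01 in males, and Bin1, which encodes a membrane-bending protein of the transverse tubules, by 0.02 in females and 0.20 in males (unadjusted p = 0.0218).

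**Figure D2:**
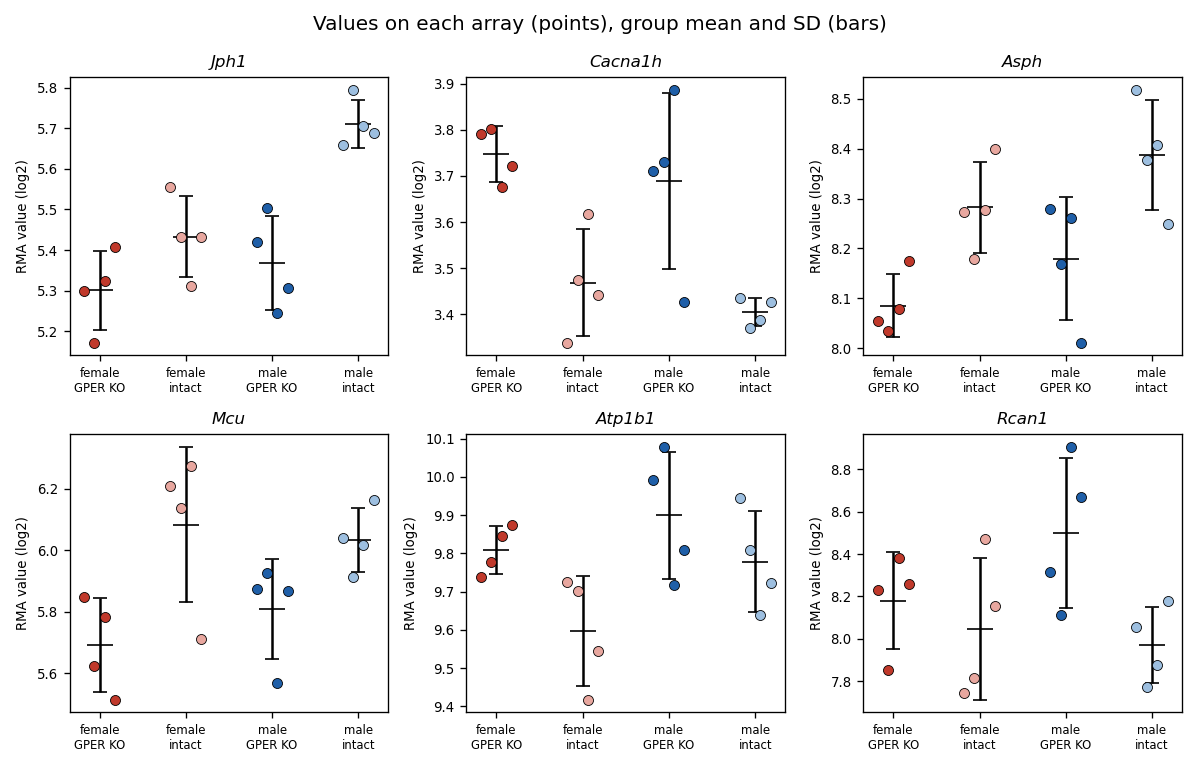
RMA values (log2) on each of 16 arrays for Jph1, Cacna1h, Asph, Mcu, Atp1b1 and Rcan1, with GPER KO left of intact in each sex, and bars for the group mean and SD (n = 4). The vertical axes differ between panels. The male GPER KO values of Jph1 (5.24 to 5.50) lie below those of male intact cells (5.66 to 5.79), and the female GPER KO values of Cacna1h (3.68 to 3.80) lie above those of female intact cells (3.34 to 3.62).

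Among the surface membrane channels, Cacna1h was higher in GPER KO cells. Cacna1h encodes a T-type calcium channel, a class of low-voltage channels that is prominent in the fetal ventricle and the conduction system. Its values were 3.79, 3.80, 3.68 and 3.72 in female GPER KO cells, against 3.34, 3.48, 3.62 and 3.44 in female intact cells, and these groups do not overlap. In males they were 3.71, 3.73, 3.89 and 3.43 in GPER KO cells, against 3.43, 3.37, 3.39 and 3.43 in intact cells. GPER KO animal 451, at 3.43, lay within the range of the male intact cells and the other 3 lay above it. By limma the difference was 0.28 in females (standard error 0.08, adjusted p = 0.192), the male difference was 0.28 (standard error 0.08, adjusted p = 0.148), and that over both sexes was 0.28 (standard error 0.06, 95% confidence interval 0.16 to 0.40, adjusted p = 0.0189). Without male GPER KO 451 the male difference was 0.37 (adjusted p = 0.0198). Of the 16 omissions of a single array this was the only 1 that gave a call in males, and the adjusted p ran up to 0.31. The call over both sexes held in each omission of a single array (adjusted p of 0.00161 to 0.0459) and was lost without male intact 430 and 433 together (adjusted p = 0.0825).

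Cacna1h was measured by 1 probe set, close to the array medians of 3.47 to 3.51, where differences can be compressed. On the same arrays the macrophage list mean of GPER KO cells averaged above that of intact cells, as given above. The cardiomyocyte list mean did too, though only 6 of its 14 genes were above the intact mean in females and 7 in males. The fibroblast list mean was 5.50 to 5.83 in female GPER KO cells, against 5.23 to 5.76 in female intact cells. In males it was 5.34 to 6.08 in GPER KO cells, against 5.39 to 5.99 in intact cells. Atrial markers were above the intact mean for 5 of 6 genes in male GPER KO cells, with a list mean of 6.54 to 7.33 against 5.74 to 6.81 in male intact cells, and for 1 of 6 in female GPER KO cells, with 5.73 to 6.84 against 5.99 to 6.98 in female intact cells. Across the 16 arrays Cacna1h correlated with the macrophage list at r = 0.629, the fibroblast list at 0.549, the cardiomyocyte list at 0.525 and the atrial list at 0.349. Within groups r was 0.572, 0.631, -0.237 and 0.433 in the same order. For the endothelial, smooth muscle and skeletal muscle lists r was -0.241, 0.117 and 0.416 across arrays. Within groups it was 0.477, 0.509 and -0.0984 for these lists, so the relation was not particular to macrophage and fibroblast markers. The part of these cells in the result was not tested. The other T-type channel measured, Cacna1g, differed by -0.02 in females and 0.01 in males. Cacna1c, the pore of the L-type channel, differed by -0.13 in females and -0.22 in males and was not called. Cacna2d1, the subunit that brings the L-type channel to the surface, differed by 0.49 in females and -0.46 in males without a call and is described with the genes that vary with it.

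Of the 10 genes of SR calcium release, 0 were called in any comparison. The smallest p over both sexes was that of Asph, which encodes junctin, a partner of the ryanodine receptor, as well as an enzyme and a further SR protein from the same locus. Asph was 8.05, 8.03, 8.08 and 8.17 in female GPER KO cells, against 8.27, 8.18, 8.28 and 8.40 in female intact cells, and these groups do not overlap. In males it was 8.28, 8.17, 8.26 and 8.01 in GPER KO cells, against 8.52, 8.38, 8.41 and 8.25 in intact cells, which overlap at their edges. The difference was -0.20 in females (standard error 0.07, adjusted p = 0.268), -0.21 in males (standard error 0.07, adjusted p = 0.266) and -0.20 over both sexes (standard error 0.05, adjusted p = 0.0638). Its 6 probe sets went different ways in females. A probe set with a mean of 7.26 was 7.46, 7.53, 7.53 and 7.70 in female GPER KO cells, against 7.11, 6.67, 6.57 and 7.30 in female intact cells, a difference of 0.64 (unadjusted p = 0.000815, adjusted p = 0.161 over all probe sets). Which product of the locus each probe set reads is not given in the files.

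Trdn encodes triadin, which anchors calsequestrin to the ryanodine receptor. It was 8.65, 8.98, 9.08 and 8.95 in male GPER KO cells, against 9.54, 9.28, 9.16 and 9.14 in male intact cells. The groups do not overlap, with a difference of -0.37 (standard error 0.12, adjusted p = 0.240). In females it was 9.25, 9.13, 8.98 and 9.34 in GPER KO cells, against 9.12, 8.96, 8.77 and 9.27 in intact cells, a difference of 0.15 (standard error 0.12, adjusted p = 0.660). All 6 probe sets of Trdn lay below the intact mean in male GPER KO cells, with differences of -0.66 to -0.20, while 5 of 6 lay above it in female GPER KO cells.

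In a fit over all 45141 probe sets, of which 0.290% were called in males and 0.817% over both sexes, the dimmest Trdn probe set was called. Its values were 5.39, 5.57, 5.58 and 5.31 in male GPER KO cells, against 6.37, 6.16, 5.79 and 6.04 in male intact cells, again without overlap. The difference was -0.62 (adjusted p = 0.0356 from limma) in males and -0.38 over both sexes (adjusted p = 0.041). In that fit Jph1 was the only other member with a called probe set in males (adjusted p = 0.046), and Jph1 and Cacna1h were the only others over both sexes. Probe sets of 1 gene share its RNA and are not replicates of each other.

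Ryr2, the cardiac ryanodine receptor, was 10.37, 10.64, 10.55 and 10.41 in male GPER KO cells, against 11.02, 10.66, 10.74 and 10.67 in male intact cells. The groups were just separate, with a difference of -0.28 (standard error 0.10, adjusted p = 0.278), and the female difference was 0.06 (adjusted p = 0.860). Hrc, a calcium-binding protein of the SR lumen, differed by -0.09 in females and -0.17 in males, and the female groups did not overlap. The other release genes, with no call, were Casq2 and Casq1, the cardiac and skeletal calsequestrins that store SR calcium, Fkbp1b, which stabilises the closed ryanodine receptor, Srl, the SR protein sarcalumenin, S100a1, a calcium sensor that acts on the receptor and the pump, and Itpr2, an inositol trisphosphate receptor. Their differences lay between -0.11 and 0.14 in both sexes. Fkbp1b, Stim1 and Ppp1r1a had means under 3.51, at the level of the array medians, so a small difference in them may not show.

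**Figure D3:**
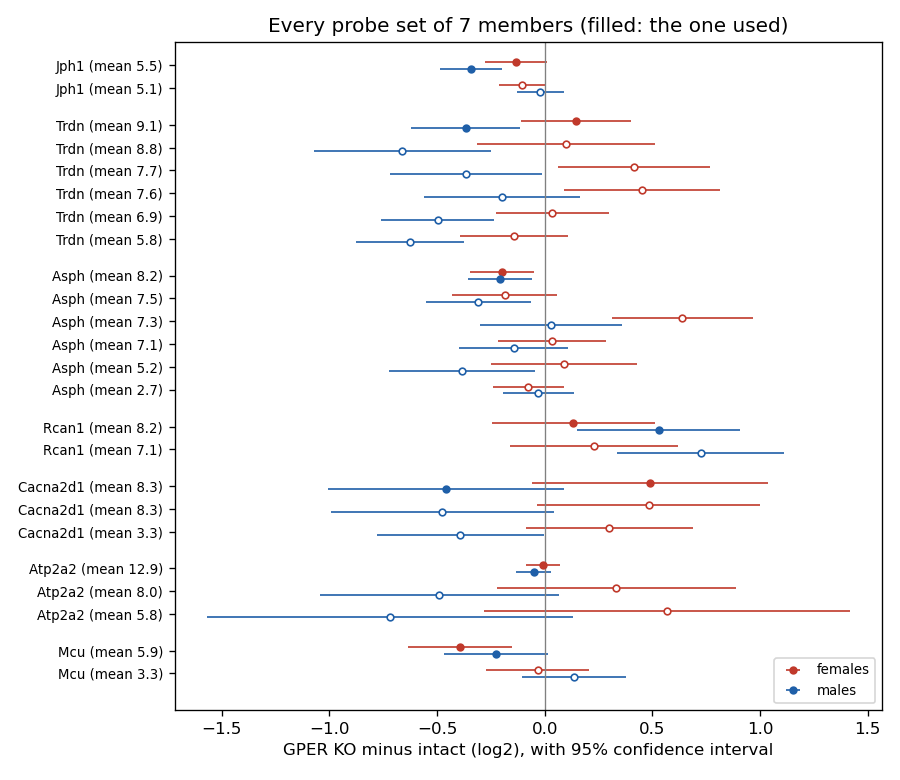
Difference between GPER KO and intact cells (log2, with 95% confidence intervals) for every probe set of Jph1, Trdn, Asph, Rcan1, Cacna2d1, Atp2a2 and Mcu, in females (red) and males (blue), labelled with the mean over 16 arrays. Filled points mark the probe set that stands for the gene. The 6 Trdn probe sets lie at -0.20 to -0.66 in males, Asph has a probe set at 0.64 in females beside 1 at -0.20, and the 2 dimmer Atp2a2 probe sets lie away from the bright 1.

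The genes of SR uptake and storage showed no called difference. Atp2a2, which encodes the SERCA2 pump, was 12.90, 12.85, 12.89 and 12.90 in female GPER KO cells, against 12.91, 12.88, 12.89 and 12.91 in female intact cells. In males it was 12.89, 12.90, 12.87 and 12.86 in GPER KO cells, against 12.96, 12.94, 12.93 and 12.91 in intact cells. The male groups do not overlap, but the difference was -0.05 (standard error 0.04, adjusted p = 0.741), in females it was -0.01 (standard error 0.04, adjusted p = 0.952), and over both sexes it was -0.03 (standard error 0.03, 95% confidence interval -0.09 to 0.03, adjusted p = 0.783). These values stand just under the array maxima of 12.97 to 13.02, where the signal can hardly rise further. The 2 dimmer probe sets of Atp2a2, with means of 8.01 and 5.75, differed by 0.33 and 0.57 in females and by -0.49 and -0.72 in males, each with an unadjusted p above 0.05.

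Pln, which encodes phospholamban, the inhibitor of the SERCA pump, differed by 0.12 in females and -0.12 in males without a call. The difference Pln minus Atp2a2 was also taken on each array, but with Atp2a2 at the top of the range it is not a measure of the ratio of inhibitor to pump. It averaged -0.50 ± 0.06 (SD, n = 4) in female GPER KO cells, against -0.62 ± 0.15 (SD, n = 4) in female intact cells (exact two-sided permutation test, p = 0.2, adjusted over 2 tests p = 0.371). In males it averaged -0.59 ± 0.15 (SD, n = 4) in GPER KO cells, against -0.52 ± 0.03 (SD, n = 4) in intact cells (exact permutation test, p = 0.371 before and after adjustment). The smallest p this design allows is 0.0286. With the mean of each gene's probe sets in place of the brightest the sign turned, to -0.20 in females (exact permutation test, p = 0.429) and 0.32 for males (exact, p = 0.143). Calr, the calcium-binding chaperone calreticulin, differed by -0.03 in females and 0.12 in males.

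Among the transporters that remove calcium and sodium from the cell, Atp1b1 had the smallest p over both sexes. It encodes a subunit of the sodium pump, which maintains the sodium gradient that drives calcium out. Atp1b1 was 9.74, 9.78, 9.84 and 9.88 in female GPER KO cells, against 9.73, 9.70, 9.42 and 9.54 in female intact cells. In males it was 9.99, 10.08, 9.72 and 9.81 in GPER KO cells, against 9.95, 9.81, 9.64 and 9.72 in intact cells. The female groups are just separate and the male groups overlap. The difference was 0.21 in females (standard error 0.09, adjusted p = 0.341), 0.12 in males (standard error 0.09, adjusted p = 0.726) and 0.17 over both sexes (standard error 0.06, adjusted p = 0.275). All 3 of its probe sets were above the intact mean in both sexes. The name of the probe set used carries a suffix by which the manufacturer marks possible cross-hybridization. Fxyd1, which encodes phospholemman, a regulator of this pump, differed by -0.07 in females and -0.02 in males, and Slc8a1 and Atp2b1 follow below.

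Among the kinases and phosphatases, Rcan1 had the largest difference in males and over both sexes, but not in females, and it was not called. Rcan1 encodes a regulator of calcineurin, the calcium-activated phosphatase that sends the factor NFAT to the nucleus, and in mice and humans transcription from an internal start of Rcan1 rises with calcineurin activity. Rcan1 was 8.31, 8.11, 8.91 and 8.67 in male GPER KO cells, against 8.05, 7.77, 7.88 and 8.18 in male intact cells. In females it was 8.23, 7.85, 8.38 and 8.26 in GPER KO cells, against 7.75, 7.82, 8.47 and 8.15 in intact cells. The male groups overlap between 8.11 and 8.18, and the female groups overlap over most of their range. The difference was 0.53 in males (standard error 0.18, adjusted p = 0.256), 0.13 in females (standard error 0.18, adjusted p = 0.806) and 0.33 over both sexes (standard error 0.13, adjusted p = 0.278). The other Rcan1 probe set, with a mean of 7.11, gave 7.24, 7.12, 7.97 and 7.61 in male GPER KO cells, against 6.56, 6.73, 6.76 and 6.99 in male intact cells. Those groups do not overlap, and the difference of 0.72 was not called among all probe sets (adjusted p = 0.137). Rcan1 in females and males did not differ by a call in the test of the difference between the sexes (0.40, standard error 0.25, adjusted p = 0.569).

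RefSeq lists 2 starts for Rcan1 on chromosome 16 (GRCm38.p6, minus strand), and the windows of 250 bases before to 50 bases after each are shown because the internal start is the calcineurin-responsive one. Capitals mark GGAAA, the core read by NFAT, GGGCGG, the GC box, and TGACGTCA, the cyclic AMP response element, on either strand.
Rcan1 upstream start, chr16:92466120-92466419: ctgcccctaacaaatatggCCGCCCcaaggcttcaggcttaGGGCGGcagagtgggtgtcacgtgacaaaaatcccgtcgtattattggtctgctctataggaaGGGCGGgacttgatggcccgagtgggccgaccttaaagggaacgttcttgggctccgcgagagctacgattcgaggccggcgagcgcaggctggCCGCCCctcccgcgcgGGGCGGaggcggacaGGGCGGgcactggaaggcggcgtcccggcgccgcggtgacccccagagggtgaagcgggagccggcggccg
Rcan1 internal start, chr16:92400029-92400328: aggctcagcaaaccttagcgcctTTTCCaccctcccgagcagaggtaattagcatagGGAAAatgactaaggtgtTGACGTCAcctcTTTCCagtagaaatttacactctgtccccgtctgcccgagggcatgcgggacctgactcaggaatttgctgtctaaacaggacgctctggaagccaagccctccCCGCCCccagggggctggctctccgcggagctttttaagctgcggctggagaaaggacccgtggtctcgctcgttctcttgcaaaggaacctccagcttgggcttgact
The upstream window held GGGCGG at 6 positions and neither other motif. The internal window held GGAAA at 3 positions, TGACGTCA at 1 and GGGCGG at 1. Of all 32851 promoter windows in the RefSeq table, 61.3% held GGAAA, 35.7% held GGGCGG and 1.79% held TGACGTCA on either strand, so GGAAA alone is common. Both Rcan1 probe sets carry a suffix for transcripts shared within a gene, and the arrays do not tell the 2 starts apart. A match of letters is a description and not a bound site.

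The other genes of this class were not called. Camk2d, the main cardiac isoform of the calcium and calmodulin kinase, differed by 0.13 in females and -0.05 in males. Camk2g, another isoform, differed by -0.12 and -0.14 in the same order, and Camk2a, the isoform best known from neurons, by -0.17 and -0.02. Ppp3ca, the catalytic subunit of calcineurin, differed by -0.04 in females and -0.23 in males. Ppp1r1a, an inhibitor of protein phosphatase 1, was dim, at 3.32, 3.27, 3.26 and 3.19 in male GPER KO cells, against 3.37, 3.36, 3.33 and 3.45 in male intact cells. Those groups do not overlap, yet the difference of -0.12 was not called (adjusted p = 0.629).

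Of the genes of mitochondrial and store-operated entry, Mcu, the pore of the mitochondrial calcium uniporter, had the smallest p over both sexes and was not called. Mcu was 5.85, 5.62, 5.78 and 5.51 in female GPER KO cells, against 6.21, 6.14, 6.27 and 5.71 in female intact cells. Intact animal 425, at 5.71, lay among the GPER KO values and the other 3 lay above them. In males Mcu was 5.87, 5.93, 5.57 and 5.87 in GPER KO cells, against 6.04, 5.91, 6.02 and 6.16 in intact cells, which overlap by a small margin. The difference was -0.39 in females (standard error 0.11, adjusted p = 0.194), -0.22 in males (standard error 0.11, adjusted p = 0.545) and -0.31 over both sexes (standard error 0.08, 95% confidence interval -0.48 to -0.14, adjusted p = 0.0795). Without female intact 425 the differences were -0.51 in females (adjusted p = 0.0203 from limma) and -0.37 over both sexes (adjusted p = 0.00671). Of the 16 omissions of a single array this was the only 1 that gave a call. Over all of them the adjusted p ran up to 0.416 in females and 0.164 over both sexes. The other Mcu probe set, with a mean of 3.27, differed by -0.03 in females and 0.14 in males. Stim1, the sensor of calcium in the SR, differed by -0.12 in females and -0.11 in males, and Orai1, the channel that it opens, by 0.01 and 0.17.

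A set of 8 members varied together from animal to animal, and all of them but Ppp3ca had differences of opposite sign in females and males, with 0 called. Cacna2d1 was 8.59, 8.33, 8.14 and 8.80 in female GPER KO cells, against 8.18, 7.77, 7.43 and 8.53 in female intact cells. In males it was 8.18, 8.36, 8.53 and 7.70 in GPER KO cells, against 9.18, 8.97, 8.26 and 8.19 in intact cells. Female intact 421 and 422 were low and male intact 430 and 433 were high, and the groups overlap in both sexes. The male difference minus the female difference was -0.95 (standard error 0.36, unadjusted p = 0.0195, adjusted p = 0.426 from limma). The same test gave -0.51 for Trdn (adjusted p = 0.426), -0.47 for Atp2b1 (adjusted p = 0.439), -0.33 for Ryr2 (adjusted p = 0.426) and -0.21 for Jph1 (adjusted p = 0.454). In all, 5 of 33 members had an unadjusted p under 0.05 for the difference between the sexes, against 11.0% of all genes, and 0 were called, with 0 of all genes called too (0%).

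Across the 16 arrays Cacna2d1 correlated with Atp2b1, a plasma membrane calcium pump, at r = 0.931 and rho = 0.921. Its correlation with Slc8a1, the sodium-calcium exchanger, was r = 0.848 and rho = 0.832, and with Trdn r = 0.806 and rho = 0.868. A permutation test over 32 relations, those of Cacna2d1 with every other member, gave adjusted p = 0.00032 for the r with Atp2b1, 8e-04 for Slc8a1 and 0.00235 for Trdn, and for rho 0.00032, 0.00192 and 8e-04. The unadjusted p for Atp2b1, 1e-05, is the smallest that 100000 resamples can give. Without the 2 arrays farthest from the median of Cacna2d1, male intact 430 and female intact 422, r was 0.881, 0.720 and 0.662 for Atp2b1, Slc8a1 and Trdn. After the group means were taken off, r was 0.936, 0.889 and 0.800, with no test. Arrays 421, 422, 430 and 433, which stand apart within their groups, were kept in this, so these values do not separate the relation from those arrays. Pln, Camk2d, Ppp3ca and Ryr2 came next, with r of 0.772, 0.740, 0.733 and 0.627 (adjusted p = 0.00304, 0.00576, 0.00731 and 0.0442 in the same permutation test) and rho of 0.671, 0.621, 0.715 and 0.409 (adjusted p = 0.035, 0.0623, 0.0183 and 0.341). Without arrays 430 and 422 their r was 0.694, 0.5, 0.589 and 0.423. This set of 8 was chosen after its values were seen. How many of all genes correlate with Cacna2d1 as strongly is not given, so the test does not show a relation particular to these members.

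In all 8 genes the female intact arrays 421 and 422 lay below both other female intact arrays. The same arrays stand apart over the whole array: the first principal component of all genes, with 26.1% of the variance, has female intact 422 and 421 at 1 end and male intact 430 at the other. The 8 genes correlated with that component at r = 0.954 for Atp2b1, 0.943 for Cacna2d1, 0.865 for Pln, 0.850 for Camk2d, 0.846 for Slc8a1, 0.710 for Trdn, 0.678 for Ppp3ca and 0.512 for Ryr2, a description across the 16 arrays with no test, since these genes are part of the component. Without female intact 421 and 422 the female difference was 0.11 for Cacna2d1 and 0.04 for Atp2b1, and the sign turned for Trdn (-0.02) and Ryr2 (-0.05). Without male intact 430 and 433, an omission chosen after seeing the data, the male difference was -0.03 for Cacna2d1 and 0.08 for Atp2b1, while Trdn stayed at -0.24 and Ryr2 at -0.21. The Gapdh control probes, read at the 3' end minus the 5' end as a sign of RNA length, gave 0.321 for female intact 422, the highest of all arrays, 0.287 for male intact 430, the next highest, and 0.130 for female intact 421, with a range of 0.0906 to 0.321. The same reading of Actb was highest on male intact 430, at 0.964, and its range began at 0.512. Over all 16 arrays the Gapdh reading correlated with Cacna2d1 at r = -0.166 and the Actb reading at r = 0.486. The part of RNA length in these differences was not tested. Atp2b1 is also among the genes that the study lists from its enrichment analysis of these arrays, so its female values are not independent of that choice.

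**Figure D4:**
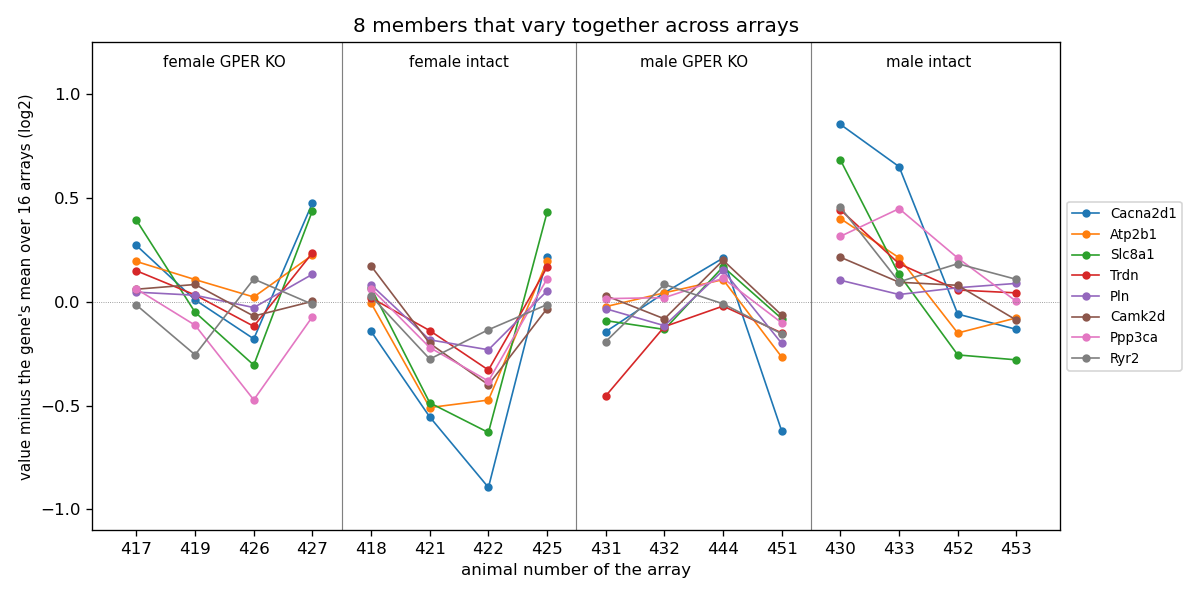
Value minus the gene's mean over 16 arrays (log2) for Cacna2d1, Atp2b1, Slc8a1, Trdn, Pln, Camk2d, Ppp3ca and Ryr2 on each array, named by animal number, with GPER KO left of intact in each sex. Lines join arrays of a group to guide the eye, since replicates have no order. The 8 genes dip together on female intact 421 and 422, and Cacna2d1 and Slc8a1 are highest on male intact 430.

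The promoter windows of 3 of these genes are shown to compare members that vary together. Capitals mark GGGCGG, the GC box, in Cacna2d1 and Atp2b1, and TATAAA, the letters of a TATA box, and GGAAA in Pln, on either strand (GRCm38.p6, plus strand).
Cacna2d1, chr5:15934441-15934740: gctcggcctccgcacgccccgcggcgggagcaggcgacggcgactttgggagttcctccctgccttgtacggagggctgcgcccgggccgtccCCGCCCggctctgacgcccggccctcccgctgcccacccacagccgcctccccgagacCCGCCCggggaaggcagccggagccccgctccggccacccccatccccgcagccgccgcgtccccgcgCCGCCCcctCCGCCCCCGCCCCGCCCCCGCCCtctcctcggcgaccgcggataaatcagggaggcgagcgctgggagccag
Atp2b1, chr10:98914392-98914691: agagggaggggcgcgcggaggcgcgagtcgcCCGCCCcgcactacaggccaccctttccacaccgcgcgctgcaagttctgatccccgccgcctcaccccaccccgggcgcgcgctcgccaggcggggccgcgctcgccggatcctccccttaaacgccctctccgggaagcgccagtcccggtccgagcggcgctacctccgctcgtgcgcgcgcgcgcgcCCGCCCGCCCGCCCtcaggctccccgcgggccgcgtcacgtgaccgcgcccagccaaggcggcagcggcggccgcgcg
Pln, chr10:53337436-53337735: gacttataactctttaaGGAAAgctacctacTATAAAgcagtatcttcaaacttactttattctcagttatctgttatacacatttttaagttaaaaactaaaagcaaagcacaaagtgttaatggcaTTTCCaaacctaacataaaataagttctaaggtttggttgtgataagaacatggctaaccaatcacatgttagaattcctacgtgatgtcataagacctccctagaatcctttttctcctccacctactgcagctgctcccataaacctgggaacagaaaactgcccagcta
Cacna2d1 held GGGCGG at 7 positions, some overlapping, in a window of 80% G and C, and Atp2b1 held it at 4, with GGAAA at 1 position that is not in capitals, in a window of 79.3%. A further start of Atp2b1, not shown, held GGGCGG at 3 positions. Pln held none in a window of 36%, with TATAAA at 1 position, a motif found in 13.6% of all windows, and GGAAA at 2. That TATAAA lies near the upstream end of the window, far from the start, and is a match of letters only. Of the 33 measured members 21 had an entry in the RefSeq table, with 26 windows, since some genes have several starts. Of these windows 18 held GGGCGG, against 35.7% of all windows, and 13 held GGAAA, against 61.3%. TATAAA was in 3, against 13.6%, and TGACGTCA in 1, against 1.79%. Of the 26 windows 21 were above the median G and C content of all windows, 52.7%. These shares were not tested. No motif searched was in all 3 windows shown, and Jph1, Cacna1h and Trdn had no entry.

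The length of the gene ran with the male differences. The 13 members that span 100 kb or more in RefSeq GRCm38.p6 were Ryr2, Trdn, Asph, Itpr2, Jph1, Cacna1c, Cacna2d1, Slc8a1, Atp2b1, Camk2d, Ppp3ca, Mcu and Stim1. They include every gene of the set that varied together, described above, except Pln, so this pattern is not separate from that one. All 13 were below 0 in male GPER KO minus intact cells, with a median of -0.22, whereas 9 of the 20 shorter members were, with a median of 0.01. Of all 2129 genes of that length, 53.9% were below 0 in males, and of all shorter genes 42%. In females 7 of the 13 long members were below 0. Spearman's rho of difference against span over the 33 members was -0.558 in males and -0.00401 in females, against -0.168 and 0.104 over 17055 genes, as a description across genes that are not independent replicates. With limits of 50 kb and 200 kb, 17 of 22 and 9 of 9 long members were below 0 in males. Without male intact 430 and 433, 10 of 13 were, with a median of -0.09, and rho was -0.316. In no other setting tried were fewer than 12 below 0. The limits were set after the values were seen.

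**Figure D5:**
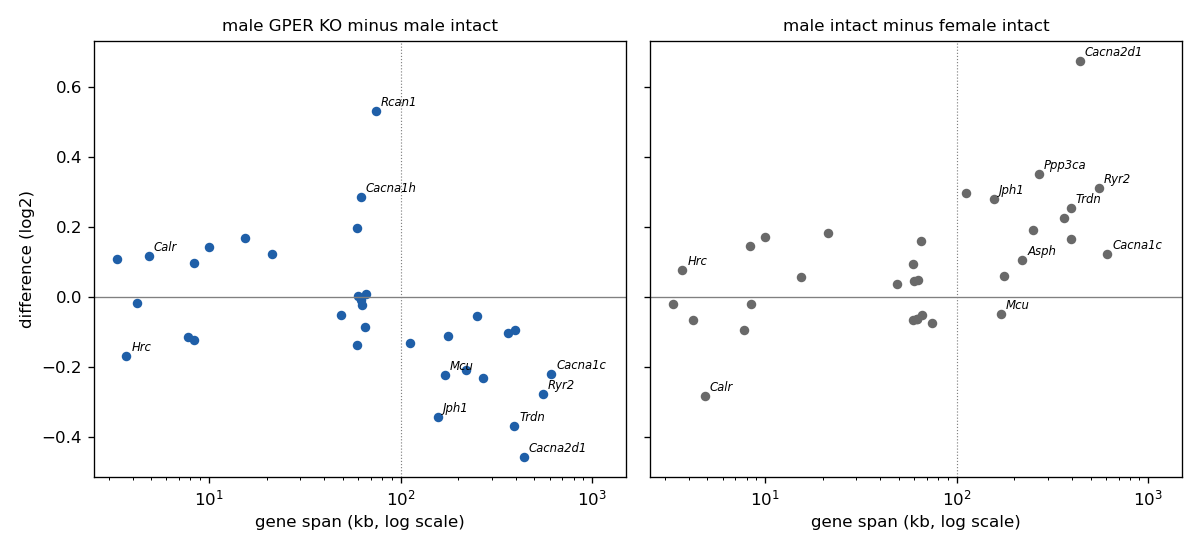
Difference (log2) against gene span (kb, log scale) for the 33 measured members, for male GPER KO minus male intact cells (left) and male intact minus female intact cells (right), with a dotted line at 100 kb. The 13 long members lie below 0 on the left and 12 of them above 0 on the right, and both panels use the male intact arrays.

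Between male and female intact cells 0 of 33 members were called, against 0.579% of all genes, and 6 had an unadjusted p under 0.05, against 17.5% of all genes. Male minus female, Jph1 differed by 0.28 (standard error 0.07, adjusted p = 0.072 from limma), Ryr2 by 0.31 (adjusted p = 0.131), Ppp3ca by 0.35 (adjusted p = 0.168), Cacna2d1 by 0.67 (adjusted p = 0.196) and Srl by 0.16 (adjusted p = 0.275). Calr differed by -0.28 (adjusted p = 0.138). Of the long members 12 of 13 were above 0, against 52.2% of all long genes. This comparison shares the male intact arrays with the male GPER KO comparison and the female intact arrays with the female one, and the male intact arrays enter their 2 comparisons with opposite signs. Leaving out female intact 418 brought Jph1 past the threshold.

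A wider list of 99 calcium genes held 82 measured ones, such as regulators of the channels, pumps, kinases and mitochondrial uptake. Of these, 0 were called in any comparison, with 12 in females (14.6% of the list, against 12.6% of all genes), 13 in males (15.9%, against 10.1%) and 11 over both sexes (13.4%, against 11.7%) at an unadjusted p under 0.05. The shares in females and over both sexes are near those of all genes, and the share in males is higher. For the difference between the sexes 18 had an unadjusted p under 0.05 (22%, against 11.0% of all genes). Between intact males and females 16 did (19.5%, against 17.5%). The list as a whole was not tested. In females the smallest p belonged to Ahnak, a large scaffold protein that binds the L-type channel (0.43, standard error 0.10, adjusted p = 0.0786), and Cacna1s, the skeletal L-type channel (-0.47, standard error 0.13, adjusted p = 0.179). In males they belonged to Fxyd6, a relative of phospholemman (0.52, standard error 0.13, adjusted p = 0.110), and Ppp1cc, a catalytic subunit of protein phosphatase 1 (0.22, standard error 0.06, adjusted p = 0.123). The list's median difference was -0.02 in females and -0.00 in males.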

How the data were processed

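The values of the 16 arrays are on the log2 scale and were made by the authors with RMA. Partek is also named in the submitters' processing notes, with no version. Scanner signals were not used here. Quantile normalization within RMA can compress very bright and very dim probe sets. Of 45141 probe sets, 28898 name 1 gene, 551 several and 15692 none. Symbols of 28689 of the first were taken from RefSeq GRCm38.p6 through the Entrez identifier.

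A linear model of the 4 group means was fitted to all arrays (R 4.3.3, limma 3.58.1), with Benjamini-Hochberg adjustment over 17097 genes and a threshold of 0.05. The code was tested on simulated data. The number of arrays limits the precision. Animal numbers are unique, nothing pairs the animals, and the labels name no batch.

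The members and lists were chosen with earlier results of these data known. By rule, array values and full statistics are given for called members, for the member with the smallest p over both sexes in each role and for Gper1, and 2 genes of the wider list are named per sex by smallest p. Trdn, Ryr2, Ppp1r1a and the genes that vary with Cacna2d1 were given in detail after their values were seen. Alternatives were other summaries of several probe sets per gene (their mean, the brightest per array, or each separately), a filter on dim probe sets, renewed quantile normalization, median centring, weighted arrays, animal number (low or high) as a block, each sex alone, trend and robust settings, omission of single arrays and of female intact 421 and 422 together. Omission of male intact 430 and 433 together was added after seeing the data. The labels set neither pair apart from the other arrays of its group, and both pairs stand out by their values only.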

Additional observations from a re-analysis of the deposited data

Results flagged for a closer look

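In 4 of the 132 groups of 4 arrays tested over the 33 members, 1 array lay far from the other 3 relative to the range of its group, by Dixon's criterion at 95%. Chance alone flags about 1 in 20 such groups. In female GPER KO cells Atp2a2 was low on array 419, at 12.85 against 12.89 for the nearest other array, a gap of 0.871 of the range, in a group whose whole range is small. In male GPER KO cells Camk2g was high on array 444, at 6.77 against 6.63, a gap of 0.897. On the same array Mcu was low, at 5.57 against 5.87, a gap of 0.836. In male intact cells Stim1 was high on array 433, at 3.68 against 3.38, a gap of 0.951, at a signal close to the array median. No member had separate groups in both sexes with opposite directions, and no member was called in the test of the difference between the sexes.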

How the results depend on the processing

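No paired analysis was possible because each animal number occurs once. The count of members called in males, 1 in the setting reported, was 0 with the mean of the probe sets, with the arrays of 1 sex alone, with trend and robust settings and without male intact 430 and 433, and 2 (Jph1 and Trdn) with every probe set, and 0 to 1 when each array was left out. Over both sexes the count of 2 was 0 without male intact 430 and 433 (Jph1 adjusted p = 0.0905, Cacna1h adjusted p = 0.0825) and 1 to 3 when each array was left out. In females, and between intact males and females, it was 0 to 1 in those omissions, and for the difference between the sexes 0 in every setting. Without male GPER KO 451 the member called in males was Cacna1h and not Jph1. Pln minus Atp2a2 turned to -0.20 in females and 0.32 in males with the mean of the probe sets. With each array left out it was 0.07 to 0.17 in females and -0.14 to -0.028 in males, where GPER KO 444 left out gave the smallest p (0.0286, exact permutation test, unadjusted). Signs of uncalled members turned for Asph in females with the mean of the probe sets (0.051), for Atp2a2 in females with that mean (0.30) and without female GPER KO 419 (0.0029, in a range of -0.016 to 0.0029 over single omissions), for Trdn (-0.018) and Ryr2 (-0.050) in females without female intact 421 and 422, for Ryr2 without 421 alone (-0.0032, in a range of -0.0032 to 0.13), and for Atp2b1 in males without male intact 430 and 433 (0.079). Asph over both sexes passed the threshold with the block of animal numbers (adjusted p = 0.0452) and without male intact 453 (adjusted p = 0.0403). Of 157 settings of the counts and of Pln minus Atp2a2, 139 left the count within 1.5 times or the difference on its side. For single members 854 of 880 settings kept the direction and the side of the threshold. Most of these results were uncalled at the outset, so the totals say little about the calls. The call of Jph1 was lost in 11 of 27 settings in males and in 2 of 26 over both sexes, and that of Cacna1h over both sexes in 1 of 26.
With 4 arrays per group, signals near the array median (Cacna1h, Fkbp1b, Stim1 and Ppp1r1a) and near the maximum (Atp2a2) limit what can be shown.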
